A study of Mus musculus with 12 samples.

Results

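The 16 deposited DNase-seq peak lists hold 127078 peaks on mouse chromosome 4, of 1600000 peaks in all. Every peak whose first field names chromosome 4 of build mm9 was taken, without any limit on signal or width. Of these, 15869 belong to replicate 1 of mitotic G1E and 13676 to replicate 1 of asynchronous G1E. The other 10 replicate lists hold 63451, and the 4 lists in which the authors pooled the replicates of a group hold the rest. The chromosome was chosen by its number of peaks per list, since both replicate 1 lists of G1E held more of its peaks than the other 10. That excess, its extent and everything else measured between the same lists are therefore a description and were not tested.

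DNase-seq maps where DNase I cuts chromatin, and was done here on 2 murine erythroid lines of strain 129, each with 3 mitotic and 3 asynchronous libraries. G1E cells lack GATA1, a transcription factor needed for red cell maturation, after targeted disruption of its gene in embryonic stem cells. G1E-ER4 cells are a subline in which GATA1 can be induced, and all 6 of their libraries had 100 nM estradiol for 22 h. No G1E library is labelled with estradiol, so line, GATA1 and estradiol cannot be told apart. Mitotic cells of both lines had 200 ng/ml nocodazole for 7 h and were sorted for histone H3 phosphorylated at serine 10. Asynchronous cells had neither the drug nor the sort. All cells were fixed lightly with formaldehyde, and a range of 3 DNase I concentrations was chosen for each condition. The labels do not say whether replicates were separate cultures, so p-values measure the spread between these libraries, which may be technical. The lines' identity could not be checked against marker genes, because no mm9 annotation was used to assign peaks to genes and the lists hold no expression values.

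A DNase I peak marks a stretch where nucleosomes are displaced or loosened, usually at a promoter, an enhancer or another regulatory element. The cuts recovered at such a site depend on how open it is, and peaks also appear more densely over wide active domains than over closed chromatin. Mouse chromosome 4 carries genes of blood formation, among them Tal1, which encodes a DNA-binding partner of GATA1. It also carries Alad and Urod, which encode enzymes of haem synthesis, and Epb41, which encodes protein 4.1 of the red cell membrane skeleton. By the RefSeq gene table of assembly GRCm38.p6 it has 1328 of the 21627 protein-coding genes of the 19 autosomes and X, or 6.14%. No annotation or genome of mm9 was used here, so peaks were not assigned to these genes, and no sequence is printed.

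Each list holds 100000 peaks, the highest by the authors' signal value, so the number of peaks is fixed and a gain on 1 chromosome lowers the others. Read depth and chromosome copy number are not known from these files. Positions are counted from 1.

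Chromosome 4 held 15.9% of the peaks of mitotic G1E replicate 1 and 13.7% of those of asynchronous G1E replicate 1, of all peaks on the autosomes and X. In the other 10 lists its share was 6.35% ± 0.929 (SD, n = 10, over all 4 groups). The other mitotic G1E lists had 7.43% and 6.77%, and the other asynchronous G1E lists had 4.67% and 5.02%. The 3 mitotic G1E-ER4 lists had 6.61%, 6.76% and 5.77%, and the 3 asynchronous G1E-ER4 lists 7.46%, 6.47% and 6.49%. The replicate 1 lists of G1E thus did not overlap the other 10, the highest of which was replicate 1 of asynchronous G1E-ER4. Against the mean of the other 10, the share was 2.50 times as high in mitotic and 2.16 times as high in asynchronous replicate 1. Against the mean of the other 2 lists of their own group, the factors were 2.23 and 2.82. Replicate 1 of G1E-ER4 showed no such step: its share was 1.06 times that of the other 2 lists in mitotic cells and 1.15 times in asynchronous cells.

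**Figure D1:**
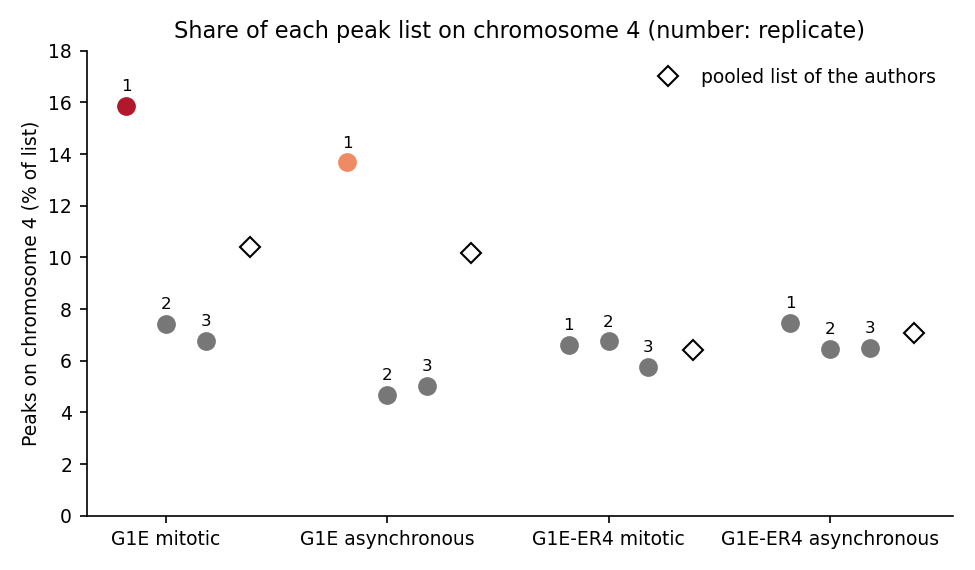
Share of each list's peaks (%, autosomes and X) that lie on chromosome 4, for the 3 libraries of each group (filled circles, numbered by replicate) and the authors' pooled list of that group (open diamonds). Replicate 1 of mitotic and of asynchronous G1E, at 15.9% and 13.7%, stand above the other 10 libraries at 4.67% to 7.46%, and the pooled G1E lists lie between.

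No other chromosome behaved this way. Of the other 19, none had both replicate 1 lists above all other 10, and chromosome 17 had both below them. In mitotic replicate 1 the other chromosomes had 0.526 (X) to 1.09 (chromosome 5) times the mean share of the other 10 lists, and 17 of the 19 were below that mean. In asynchronous replicate 1 the range was 0.678 (chromosome 2) to 1.83 (X), and 11 of the 19 were below the mean. The asynchronous value on X lay above the other 10 as well, as X held 1.11% of the peaks of that list and 0.358% to 1.03% of those of the other 10.

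**Figure D2:**
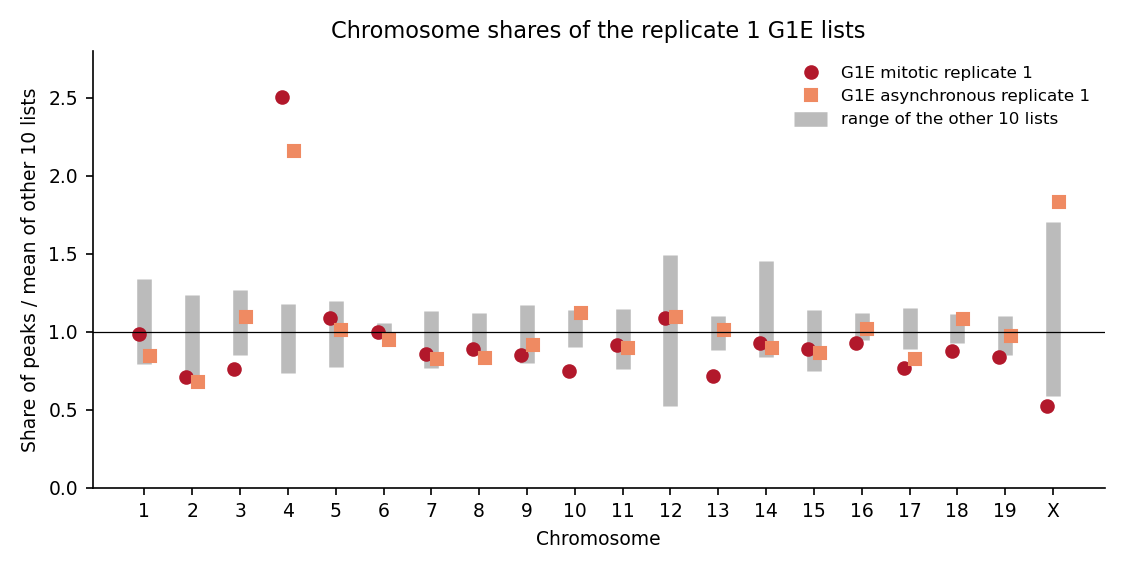
Share of peaks on each chromosome divided by the mean share of the 10 lists that are not replicate 1 of G1E, for mitotic (circles) and asynchronous (squares) replicate 1 of G1E, with the range of the other 10 lists as grey bars. Chromosome 4, at 2.50 and 2.16, is the single chromosome where both marks lie above the grey bar.

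The excess ran along all of chromosome 4. In segments of 10 Mb, both replicate 1 lists had more peaks than each of the other 10 lists in 16 of 16 segments. The background for this pattern was 6.91% of the 275 segments of all chromosomes, and on the other chromosomes it was met by 3 of 259. Relative to the mean of the other 10 lists, the mitotic list had 1.80 to 5.69 times as many peaks and the asynchronous list 1.66 to 4.47 times as many. The peak-rich distal end was raised least. The last segment, from 150000001 on, had 1590 peaks in mitotic and 1466 in asynchronous replicate 1, against 885 ± 196 in the other lists (SD, n = 10). The segment from 90000001 to 100000000 had 460 and 295 peaks in these lists, against 80.8 ± 20.6 in the others (SD, n = 10). At this resolution no segment was back within the range of the other lists in peak number, although single 1 Mb bins were.

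At a resolution of 1 Mb, 153 bins of chromosome 4 held a peak in any replicate list, the first starting at 3000001. Both replicate 1 lists were above all other 10 in 105 of the 153, or 68.6%, where the background over all 2541 bins was 4.96%. On the other chromosomes 21 of 2388 bins did so. No bin of chromosome 4 had both replicate 1 lists below the other 10, against a background of 1.26%. The 48 bins of chromosome 4 outside the pattern were mostly bins with few peaks in any list, with a median of 1.55 peaks in the mean of the other 10 lists, against 30.4 in the 105. Among the 86 bins with a mean of at least 10 peaks in the other lists, 81 had the pattern, and in 86 of 86 each replicate 1 list exceeded that mean. The background above covers sparse bins as well, and none was computed for bins of this density alone. With the 20000 highest peaks of each list, 27 of 140 bins had the pattern, and with the 50000 highest 54 of 150. No background over all chromosomes was computed at these limits.

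The factor was larger where peaks were sparse. In the 29 bins where the other lists averaged at least 100 peaks, mitotic replicate 1 had 1.94 times and asynchronous replicate 1 1.74 times that number. In the 57 bins averaging 10 to below 100 the factors were 3.23 and 2.81, and in the 67 bins below 10 they were 5.81 and 3.26. Counted as peaks, however, the dense bins gave the most, with 7691 in mitotic and 6907 in asynchronous replicate 1, against 3968 in the mean of the other lists. The sparse bins gave 1116 and 626, against 192 in that mean.

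**Figure D3:**
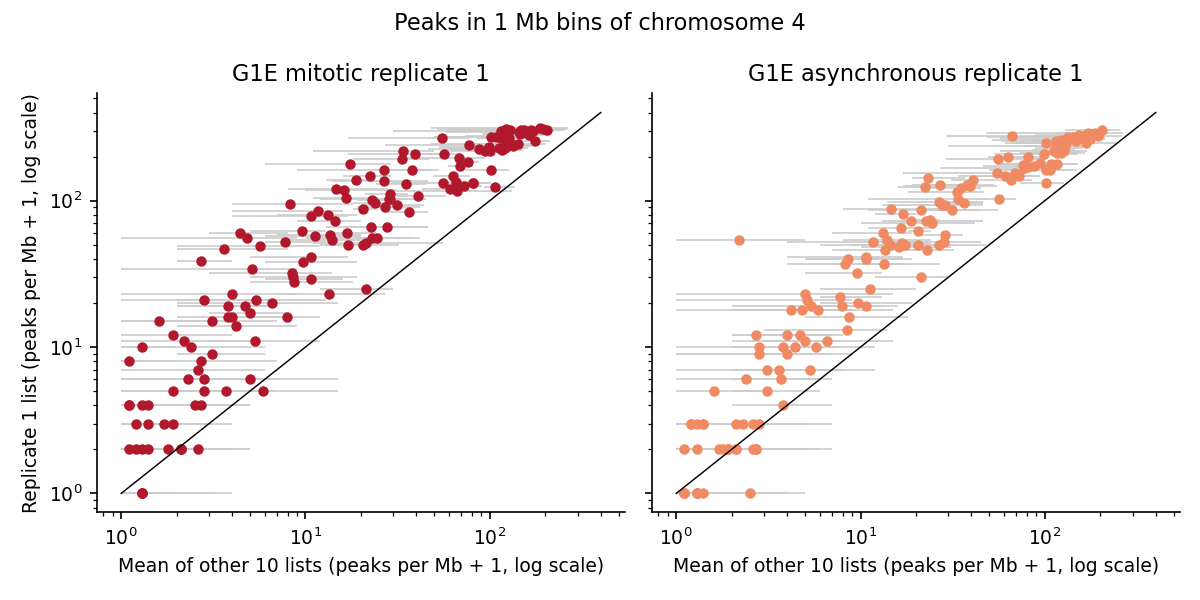
Peaks in each 1 Mb bin of chromosome 4 in mitotic (left) and asynchronous (right) replicate 1 of G1E (vertical axis, log scale after adding 1) against the mean of the other 10 lists (horizontal axis, log scale after adding 1); grey lines span the lowest to the highest of the 10 and the black line marks equality. Points with at least 10 peaks on the horizontal axis lie above the line, closest to it where peaks are densest.

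The 5 bins with the highest factor among those 86, by the mean of both replicate 1 lists start at 56000001, 82000001, 99000001, 104000001 and 105000001. The bin from 105000001 had 119 peaks in mitotic and 87 in asynchronous replicate 1, against 13.6 ± 5.74 in the other lists (SD, n = 10), a factor of 7.57. The bin from 104000001 differed most between both lists among the 5, with 176 peaks in mitotic and 49 in asynchronous replicate 1, against 16.4 ± 7.82 (SD, n = 10). The 5 lowest start at 42000001, 43000001, 151000001, 154000001 and 155000001, with factors of 1.30 to 1.49. In the bin from 42000001 the counts of 24 and 29 did not exceed the 11 to 29 peaks of the other lists. The bin from 155000001, the last, had 123 peaks in mitotic and 161 in asynchronous replicate 1, against 92 to 136 in the other lists.

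The excess stood at different ranks in the 2 libraries. Among the 100 peaks of highest signal, 18 in mitotic and 26 in asynchronous replicate 1 lay on chromosome 4, against 2 to 10 in the other lists. Among the top 1000 there were 126 in mitotic and 216 in asynchronous replicate 1, against 46 to 67. Below that the lists parted. In mitotic replicate 1 the share was 12.4% of ranks 1 to 10000, reached 25.0% of ranks 10001 to 20000 and then declined to 11.6% of the last 10000. In asynchronous replicate 1 it was 9.01% of the first 10000 and between 7.38% and 8.32% up to rank 40000, and 17.1% to 18.9% from rank 50001 on. The other 10 lists stayed between 3.89% and 8.36% in every class of 10000 ranks, with class medians of 6.34% to 6.78%. At ranks 20001 to 40000 the asynchronous replicate 1 list lay inside the range of the other 10. Its chromosome 4 peaks accordingly had a median rank of 63427, against 47249 for its peaks on other chromosomes. In mitotic replicate 1 the order was the opposite, with 41763 on chromosome 4, against 51589 on other chromosomes.

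**Figure D4:**
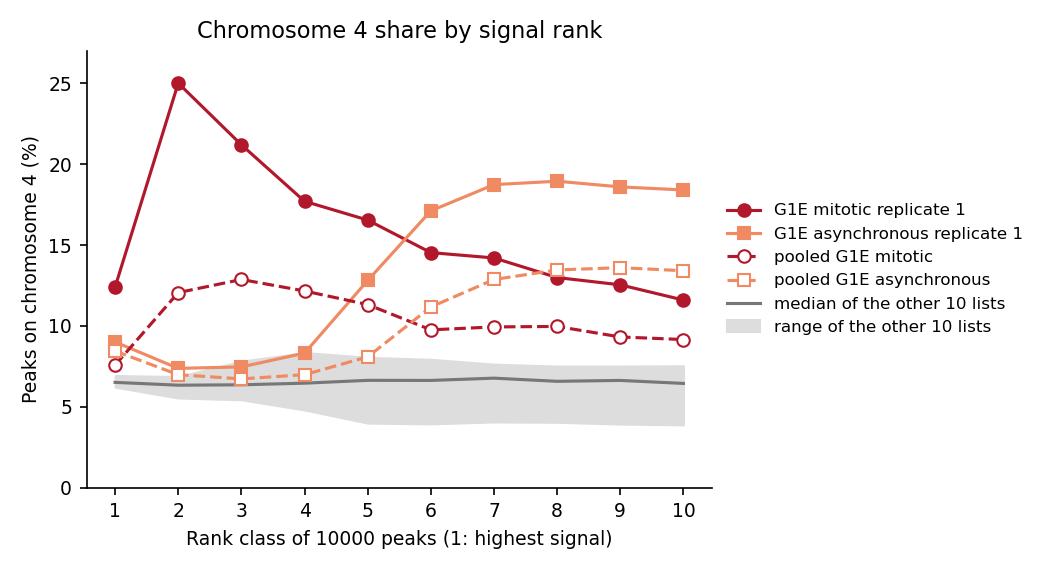
Percentage of peaks on chromosome 4 in successive classes of 10000 ranks by signal, from the highest (1) to the lowest (10), for replicate 1 (filled, solid) and the pooled list (open, dashed) of mitotic and asynchronous G1E, with the median and range of the other 10 replicate lists in grey. The mitotic replicate 1 share reaches 25.0% in the second class, while the asynchronous share is between 17.1% and 18.9% from the sixth class on.

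Sites that every library had were also higher on chromosome 4 in these lists. Merging the 12 replicate lists gave 20320 regions on chromosome 4, of which 1080 were present in all 12, beside 15243 such regions elsewhere. The signal is the authors' own value with an unstated normalization, so it was compared only within each list. The median signal of the 1080 sites was 1.29 times that of the 15243 sites in mitotic replicate 1 and 1.45 times in asynchronous replicate 1. In the other 10 lists this ratio was 0.987 to 1.04. In terms of order, the median chromosome 4 site stood above 65.3% of the sites on other chromosomes in mitotic and above 68.1% in asynchronous replicate 1, against 49.1% to 51.9% in the other lists. The replicate 1 lists thus had higher shared sites on chromosome 4 as well as additional peaks. Other chromosomes varied too: relative to the mean of the other 10 lists, this ratio was 1.28 (mitotic) and 1.43 (asynchronous) for chromosome 4, while it was 1.81 and 0.524 for chromosome 12 and 1.30 and 0.698 for chromosome 1.

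Site by site, 864 of the 1080 (80.0%) had a higher percentile of signal, taken among the 16323 sites of a list, in mitotic replicate 1 than in the mean of the other 10 lists, and 891 (82.5%) in asynchronous replicate 1. For sites on other chromosomes these shares were 48.9% and 45.8%. In 215 of the 1080 (19.9%) both replicate 1 lists exceeded each of the other 10, where the background over all 16323 sites was 2.78%. The median percentile of the sites was above that of all other 10 lists in 15 of 16 segments in mitotic and 13 of 16 in asynchronous replicate 1. In 4 of the 16 segments, including the first and the last, 1 of the replicate 1 lists lay within the range of the other 10. Segments of other chromosomes were not counted in this way, so how common such segments are elsewhere is not known.

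**Figure D5:**
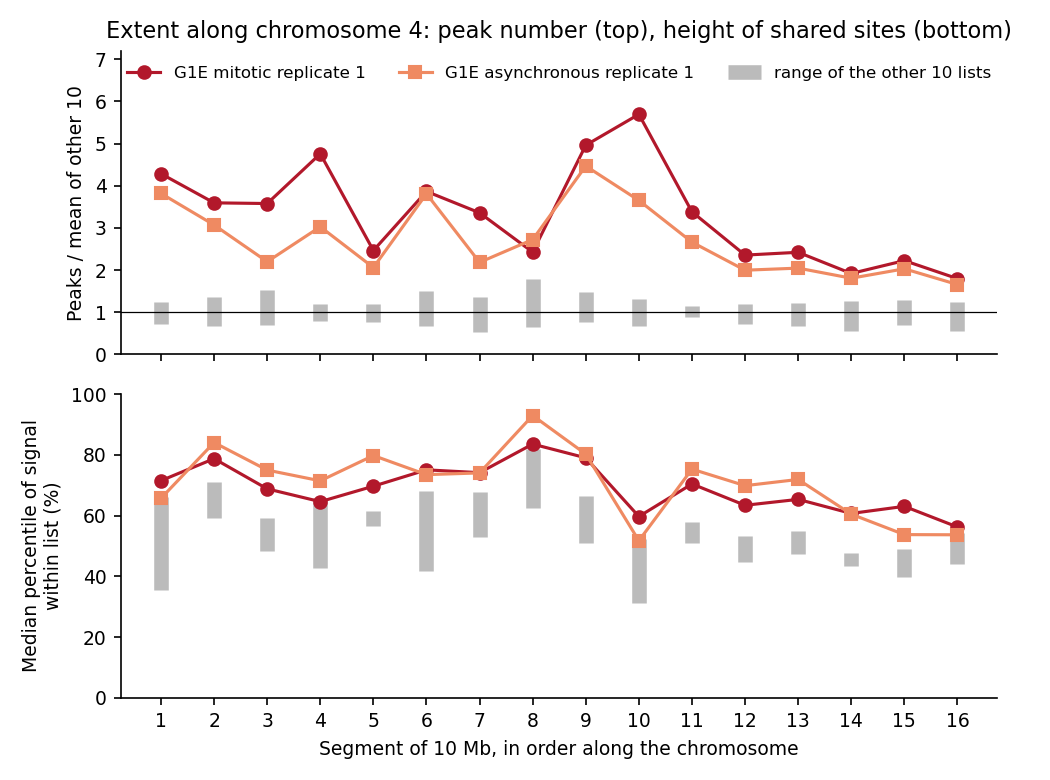
Top, peaks per 10 Mb segment of chromosome 4 divided by the mean of the other 10 lists, and bottom, median percentile of signal, among the 16323 sites of all 12 lists, of the chromosome 4 sites in each segment; circles are mitotic and squares asynchronous replicate 1 of G1E, and grey bars the range of the other 10 lists. The peak number is above the grey bar in all 16 segments for both, and the percentile for both in 12 of 16.

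Both lists had wider and more closely spaced peaks on chromosome 4 than elsewhere. The median width was 1068 bp on chromosome 4, against 921 bp on other chromosomes, in mitotic replicate 1, and 894 bp against 739 bp in asynchronous replicate 1. These are ratios of 1.16 and 1.21, where the other 10 lists had 0.995 to 1.08. The median gap between neighbouring peaks was 1032 bp on chromosome 4, against 3129 bp elsewhere, in mitotic replicate 1, and 1393 bp against 3240 bp in asynchronous replicate 1. In the other 10 lists the median gap on chromosome 4 was 1817 to 6150 bp. In covered length, chromosome 4 had 24.7 Mb in mitotic and 17.6 Mb in asynchronous replicate 1, or 19.1% and 15.6% of all covered bases, against 4.74% to 7.96% in the other lists.

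The excess was also seen in the numbering of the peaks, which runs beyond the 100000 that are listed. Peak names carry a number that increases with position along each chromosome, and its last value was read as the number of peaks before the limit, a meaning the sources do not state. On chromosome 4 it was 57517 in mitotic and 56560 in asynchronous replicate 1, against 12943 to 33466 in the other 10 lists. As a share of the numbers of all chromosomes this was 9.80% in mitotic and 12.7% in asynchronous replicate 1, against 4.74% to 6.70%. The asynchronous factor, 2.10, was close to that of the listed peaks, while the mitotic factor was 1.63. In mitotic replicate 1, 27.6% of the numbered peaks of chromosome 4 were listed, against 15.9% on other chromosomes, and in asynchronous replicate 1 24.2%, against 22.1%.

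Most of the chromosome 4 peaks of the replicate 1 lists lay at places that other libraries also had. Of the mitotic replicate 1 peaks, 62.8% fell in a region with a peak in at least 1 of the other 10 lists, and of the asynchronous ones 72.0%. On other chromosomes the same lists had 88.3% and 86.1%. The peaks in none of the other 10 numbered 5910 in mitotic replicate 1, with a median width of 726 bp and a median rank of 63175. In asynchronous replicate 1 they numbered 3832, with a median width of 588 bp and a median rank of 75983. The 1745 mitotic peaks in regions of all other 10 lists had a median width of 2132 bp and a median rank of 10365, so they were wider and higher. Replicate 1 lists also held nearly all chromosome 4 peaks of the others: 91.1% to 97.9% of them were in at least 1 replicate 1 list, against 67.4% to 81.9% on other chromosomes. The excess by itself raises this share, as these lists cover 24.7 and 17.6 Mb of chromosome 4, against a mean of 6.31 Mb in the other 10.

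Both replicate 1 lists, and none of the other 10, had 1068 regions of chromosome 4. That is 5.26% of its regions, where the background over all chromosomes was 0.661%, and 60.9% of the 1753 such regions in the genome. They were spread over 108 of the 1 Mb bins, with a median width of 1120 bp and a median mean rank of 64658, and 182 had a mean rank up to 50000. Another 4793 regions were in mitotic and 2722 in asynchronous replicate 1 alone, of 20320 on chromosome 4. On other chromosomes these were 9136 and 11301 of 245051 regions, so regions of a single list were common there too. With 1 of the replicate 1 lists left out, the regions held by the remaining list and none of the other 10 numbered 6144 (without asynchronous) and 4132 (without mitotic), since only a single list was then required. No background over all chromosomes was computed for these counts.

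The 5 best-ranked of the 1068 had, by their choice, no listed peak in the other replicate lists. Weaker peaks of those libraries at these places would not be listed, so a lack of any peak there was not shown. The first of the 5 regions spans 32255184 to 32258799 and ranked 7479 in mitotic and 11073 in asynchronous replicate 1. A close pair lies from 133652481 to 133653689, at ranks 29953 and 14661, and from 133653983 to 133655213, at ranks 28505 and 8317. The region from 135472473 to 135475644 ranked 19839 in mitotic and 19226 in asynchronous replicate 1. The last, from 88809170 to 88811130, ranked 20295 and 24866. The pooled lists of mitotic and asynchronous G1E, which include these libraries, held all 5, and the pooled G1E-ER4 lists, which do not, held none, as their choice largely fixes.

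The chromosome's top sites, by contrast, were present in all lists by their choice, being the 5 with the best mean rank among regions common to all 12 lists. The best mean rank belonged to the region from 78419398 to 78420363, at rank 21 in mitotic and 13 in asynchronous replicate 1 and at 7 to 42 in the other lists. It was followed by 118903918 to 118907553, at ranks 324 and 51, against 76 to 575. The region from 43010355 to 43014700 stood at ranks 109 and 57, above each of the other lists, at 119 to 1185. That from 147797080 to 147798061 stood at 43 and 7, against 29 to 1769, and that from 133799229 to 133811340 at 41 and 90, against 28 to 1787. Only 1 of these 5 sites therefore ranked higher in both replicate 1 lists than in every other list.

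Overlap was measured as the Jaccard index, which divides the bases that both lists cover by the bases that either covers. It was 0.419 on chromosome 4 between mitotic and asynchronous replicate 1, against 0.318 on the other chromosomes. This overlap was not particular to that pair. Replicate 1 of asynchronous G1E-ER4 had an index of 0.490 with mitotic replicate 1 of G1E on chromosome 4, against 0.384 elsewhere, and of 0.419 with asynchronous replicate 1 of G1E, against 0.278 elsewhere. For pairs of 1 replicate 1 list with 1 of the other 10, the median was 0.232 on chromosome 4, against 0.328 on the other chromosomes, and chromosome 4 was higher in 4 of 20 pairs. Among the other 10 the medians were 0.306, against 0.351, and chromosome 4 was higher in 3 of 45 pairs. Unequal covered lengths limit the index; how far they do so here was not tested.

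The pooled G1E lists carried the excess in part. Chromosome 4 held 10.4% of the pooled mitotic and 10.2% of the pooled asynchronous G1E list, against 6.42% and 7.07% in the pooled G1E-ER4 lists, a ratio of 1.53 over both stages. Relative to the mean of replicates 2 and 3 of the same group, the pooled share was 1.47 times as high in mitotic and 2.10 times as high in asynchronous G1E. In the pooled G1E-ER4 lists these factors were 1.02 and 1.09. The distance from that mean to replicate 1 was covered to 37.8% in mitotic and to 60.4% in asynchronous G1E. The rank profiles followed those of the replicate 1 lists, with a maximum of 12.9% at ranks 20001 to 30000 in the pooled mitotic list and of 13.6% at ranks 80001 to 90000 in the pooled asynchronous one.

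Much of chromosome 4 in the pooled G1E lists was backed by replicate 1 alone. Of the pooled mitotic peaks on chromosome 4, 4604 (44.2%) overlapped a peak of replicate 1 and none of replicates 2 and 3, against 14.6% on other chromosomes. In the pooled asynchronous list these were 5500 peaks (54.0%), against 21.6%. In the pooled G1E-ER4 lists the shares were 20.5% on chromosome 4, against 20.2% elsewhere, in mitotic cells and 23.9%, against 20.9%, in asynchronous cells. Of the 1068 regions found only in both replicate 1 lists, the pooled mitotic G1E list held 604 (56.6%) and the pooled asynchronous one 535 (50.1%). Of the 685 such regions on other chromosomes these lists held 55.2% and 67.9%, so this was not particular to chromosome 4. The pooled G1E-ER4 lists held 18 (mitotic) and 28 (asynchronous) of the 1068, as the choice of regions absent from every G1E-ER4 replicate list largely fixes.

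Several of the group comparisons that used these lists shifted on chromosome 4, and others did not. Regions present in all 3 mitotic G1E lists and in no mitotic G1E-ER4 list numbered 1543, of which 225 (14.6%) were on chromosome 4. Chromosome 4 held 7.66% of all regions, a share that the excess itself raises. Of its 20320 regions, 4793 were in mitotic and 2722 in asynchronous replicate 1 of G1E alone, and 1068 only in both. The 7.66% is therefore no baseline for patterns without these lists. Without replicate 1 of G1E the regions of this pattern numbered 4710, of which 280 (5.94%) were on chromosome 4. Fewer G1E lists then had to meet the rule, which loosens it on every chromosome. No other replicate was left out for comparison, here or in the patterns below. In the authors' pooled lists 17.0% of the regions of mitotic G1E and not of mitotic G1E-ER4 lay there. The same pattern in asynchronous cells numbered 297 of 5700 (5.21%) in the replicate lists, and 344 of 9403 (3.66%) without replicate 1 of G1E, while the pooled lists gave 10.3%. In the opposite direction, regions of all 3 asynchronous G1E-ER4 lists and no asynchronous G1E list numbered 61 of 5205 (1.17%) on chromosome 4, and 639 of 7808 (8.18%) without replicate 1 of G1E. In mitotic cells this direction numbered 13 of 1423 (0.914%), and 65 of 2187 (2.97%) without replicate 1 of G1E. Between the stages of G1E, regions of every mitotic and no asynchronous list numbered 144 of 5809 (2.48%), and 1055 of 12707 (8.30%) without replicate 1. Regions of every asynchronous and no mitotic list changed little in share, at 332 of 7880 (4.21%), and at 573 of 13517 (4.24%) without replicate 1.

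The share of chromosome 4 was compared between stages, although the choice of the chromosome took 1 high list from each stage of G1E. These 2 lists offset each other in the difference and widen the spread, so the test cannot show whether the stages differ. Both lists are of G1E, so no test of the difference between lines is reported. The share averaged 10.0% ± 5.07 in mitotic and 7.79% ± 5.10 in asynchronous G1E, and 6.38% ± 0.534 in mitotic and 6.81% ± 0.566 in asynchronous G1E-ER4 (SD, n = 3 each). Mitotic lists had 0.904 percentage points more than asynchronous lists with both lines counted. A two-sided exact permutation of the stage labels inside each line (400 arrangements) gave p = 0.475, from which no conclusion is drawn. The stage difference turned to -0.557 points without replicate 1 of mitotic G1E (exact p = 0.93) and was 2.38 points without replicate 1 of asynchronous G1E (exact p = 0.29). Each of these leaves 1 chosen high list in a single stage, so no conclusion is drawn from them either. G1E lists had 2.32 points more than G1E-ER4 lists with both stages counted. The difference was 3.65 points in mitotic cells and 0.985 points in asynchronous cells. Without both replicate 1 lists of G1E it was -0.617 points, so its sign rests on them. Without the mitotic list alone it was 0.855 points and without the asynchronous list alone 0.844. The stage difference was 2.23 points in G1E and -0.427 points in G1E-ER4.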

How the data were processed

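The submitters' processing notes name Bowtie and build mm9. For the Bowtie version, the peak caller and the filters: not given in the sources used here. Deposited were 12 lists, 1 per library, and 4 lists pooled by the authors, each of 100000 peaks sorted by a signal whose normalization is not stated, per the file contents. Signal was used only to rank or describe peaks within a list. Peak lists give no read depth, so counting intervals could not be stated.

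Chromosomes 1 to 19 and X entered the shares; 2 to 7 peaks per list on Y and 1 on the mitochondrial genome were left out. Peaks were assigned to bins of 1 Mb by their midpoints. Regions were the union of the 12 lists, joined when intervals overlapped by 1 bp or more. No 2 lists were identical. A list was above the other 10 when its value exceeded the highest of them. Tests were exact permutation tests over lists, with a threshold of 0.05. The planned test between lines is not reported, because the high lists that chose the chromosome are both of G1E.

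Named regions were the 5 best-ranked of each class and the 5 highest and 5 lowest bins with a mean of at least 10 peaks. Members, rules and comparisons were chosen with earlier results of these data known. The peak numbers before the rank limit and the values on sites of all 12 lists were added after seeing the files. Alternatives were each list left out, the 50000 and 20000 highest peaks, covered bases, autosomes only, other bin sizes, other overlaps and exchange within replicate numbers. The rule for bins above the other lists and the permutation test were tried on simulated data, and the merging of regions on a hand-made case. The other calculations were not tried in this way. Calculations were run in numpy 2.4.6, scipy 1.17.1, pandas 2.3.3 and matplotlib 3.10.9 under Python 3.11.15.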

Additional observations from a re-analysis of the deposited data

How the results depend on the processing

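The direction of the chromosome 4 excess held under every alternative run. With the 50000 and the 20000 highest peaks the factor over the other 10 lists was 2.89 and 2.91 in mitotic replicate 1, and 1.40 and 1.28 in asynchronous replicate 1. In covered bases it was 3.03 (mitotic) and 2.48 (asynchronous), and in peak numbers before the rank limit, added after seeing the data, 1.63 in mitotic replicate 1. Leaving out each of the other 10 lists gave 2.43 to 2.55 in mitotic and 2.09 to 2.20 in asynchronous replicate 1. The ratio of the pooled G1E to the pooled G1E-ER4 lists was 1.35 with the 50000 and 1.33 with the 20000 highest peaks. The share of 1 Mb bins with both lists above the other 10 was 36.0% and 19.3% with these limits, and 68.6% to 80.4% with each list left out. Leaving out a list can only keep or raise this share. No background over all chromosomes was computed for these settings. The 80.4% came without asynchronous replicate 1 of G1E, when a single list had to exceed the others. With 1 of the replicate 1 lists left out, regions of the remaining list and none of the other 10 numbered 6144 and 4132. Only a single list was then required, and no background was computed for these counts. The regions found only in both replicate 1 lists numbered 1107 to 1298 with each of the other 10 lists left out and 1002 with 300 bp around summits. An overlap of 0.5 of the shorter interval cannot change them, as each peak lies inside its merged region. The stage difference in share was -0.557 to 2.38 points with each list left out and -0.0507 points in peak numbers before the rank limit (exact permutation p = 0.97). As the chosen high lists enter these values, they cannot show whether the stages differ. The line difference was 0.844 to 3.13 points with each list left out, and -0.617 points without both replicate 1 lists of G1E. The cause of these shifts was not tested.

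Lists of the same replicate number in 2 groups did not all deviate together in the 1 Mb bins: over all chromosomes 6 of 12 correlations of deviations exceeded 0.1, with a lowest of -0.353, and on chromosome 4 alone 7 of 12 did, with a lowest of -0.404. Without chromosome 4, 4 of 12 did, with a lowest of -0.349. On chromosome 4 the 3 same-numbered pairs of mitotic and asynchronous G1E had correlations of 0.335, 0.128 and 0.189. For the replicate 1 pair the value was 0.192 over all bins and -0.0853 without chromosome 4. Over all bins, a list correlated best with its own number in 10 of 24 comparisons. The numbers were therefore not taken as pairs. With labels exchanged only within replicate numbers, as a replicate block, the exact permutation p was 0.219 for the stage difference of 0.904 points (64 arrangements). This too cannot decide between stages, since 1 high list was chosen from each. A block leaves the line difference at 2.32 points, for which no test is reported.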

Other observations

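Away from chromosome 4, 21 of the 2388 bins of 1 Mb had both replicate 1 lists of G1E above the other 10, and 12 of these lay on chromosome 5 between 64000001 and 79000000. This stretch was noticed after its values were seen and was not tested. Its 15 bins held 1460 peaks in mitotic and 1570 in asynchronous replicate 1, against 436 ± 77.0 in the other lists (SD, n = 10) with a highest of 579, which are factors of 3.35 and 3.60. The rest of chromosome 5 had 0.924 and 0.826 times the mean of the other lists, so there the excess was of part of a chromosome. Its 64 sites present in all 12 lists had a median percentile of signal of 77.8 in mitotic and 77.6 in asynchronous replicate 1, against 48.6 to 64.3 in the other lists. The authors' pooled lists held 880 peaks of the stretch in mitotic and 1138 in asynchronous G1E, against 396 and 497 in mitotic and asynchronous G1E-ER4. The remaining 10 Mb segment with this pattern outside chromosomes 4 and 5 is the end of chromosome 11, from 120000001 on.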
